A study of Mus musculus with 2 samples.

Results

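Described here are 10 genes of the vascular endothelial growth factor (VEGF) and angiopoietin systems, namely the secreted ligands *Vegfa*, *Vegfc* and *Angpt1* and the receptors or co-receptors *Kdr*, *Flt1*, *Flt4*, *Nrp1*, *Nrp2*, *Tek* and *Tie1*. They were taken by name, as 10 of the 27254 genes counted in the lung of newborn mice. The lungs came from 2 female wild-type C57BL/6J mice at postnatal day 1 (PND1), 1 mouse in each of Batch 1 and Batch 2, and no genotype or treatment was compared. Dissociated cells of the whole lung were profiled by Drop-seq, in which each cell shares a droplet with a barcoded bead and each counted molecule bears a unique molecular identifier (UMI). The batches are the only replicates, so every p below measures the spread between sums of cells from 2 mice, estimated over all classes or lineages of a fit together.

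VEGF ligands act through receptor tyrosine kinases on endothelial cells. VEGFA binds KDR, the main signalling receptor of blood vessels, and FLT1, which binds it tightly and also exists in a soluble form, whereas VEGFC signals chiefly through FLT4 in lymphatic endothelium. The neuropilins NRP1 and NRP2 are co-receptors shared by VEGF and class 3 semaphorins. ANGPT1, made by cells around vessels, activates TEK (also called TIE2), and TIE1 is a related receptor that modulates TEK. In the lung, alveolar type 1 (AT1) cells form the thin gas exchange surface against the capillaries, and alveolar type 2 (AT2) cells secrete surfactant.

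After removal of cells with more than 10% mitochondrial UMIs, 2388 cells of Batch 1 and 5615 of Batch 2 remained, with 4432553 and 18232639 UMIs and medians of 1386.5 and 2014 UMIs per cell. The limit removed 1 cell of Batch 1 and 1940 of Batch 2, and no barcode was shared by both batches. Cells were clustered without the 10 genes, and a class was given a name ending in "-like" from lists of marker genes. Of the named classes, 15 held at least 20 cells in each batch. The general capillary-like class carried the 5 lineage markers of endothelium at 76.5 and 67.8 UMIs per 10000 in Batch 1 and Batch 2, and AT2-like cells carried them at 0.96 and 0.35. The list of 11 aerocyte markers was not specific to its class: aerocyte-like capillary cells held it at 67.2 and 53.0 UMIs per 10000 and AT1-like cells, which share *Emp2* with that list, at 72.5 and 58.1. A further 279 cells had markers of more than 1 lineage and were kept apart as mixed. Values below are UMIs of a gene per 10000 UMIs of the class, given for Batch 1 and then Batch 2, and detection is the percentage of cells in which the gene was counted. Intervals are 95% exact Poisson intervals for levels and Wilson intervals for detection, and cover counting error only.

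The promoters of 4 of the genes are shown. The results below turn on these genes and, unlike the windows of *Kdr*, *Flt1*, *Tek* and *Nrp1*, their windows lie outside the span that RefSeq gives the gene: *Vegfa* stood out in AT1-like cells, *Tie1* in every endothelial class, and *Flt4* and *Nrp2* together in lymphatic cells. Each run gives the 250 bases before the RefSeq start on the gene's own strand, in build GRCm38.p6, and capitals mark GGAA or its reverse complement TTCC, the core bound by Ets factors.
*Vegfa*, chr17:46032378-46032627, minus strand: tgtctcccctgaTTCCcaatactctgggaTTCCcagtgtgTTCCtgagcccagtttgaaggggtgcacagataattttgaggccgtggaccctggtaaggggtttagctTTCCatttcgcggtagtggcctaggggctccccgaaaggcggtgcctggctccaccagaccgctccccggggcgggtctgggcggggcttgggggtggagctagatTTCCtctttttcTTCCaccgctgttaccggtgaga
*Tie1*, chr4:118489850-118490099, minus strand: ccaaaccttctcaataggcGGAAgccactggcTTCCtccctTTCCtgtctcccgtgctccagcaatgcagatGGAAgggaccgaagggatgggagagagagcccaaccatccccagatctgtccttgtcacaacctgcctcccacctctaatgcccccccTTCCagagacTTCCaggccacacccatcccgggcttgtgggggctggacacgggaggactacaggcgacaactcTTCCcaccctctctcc
*Flt4*, chr11:49609429-49609678, plus strand: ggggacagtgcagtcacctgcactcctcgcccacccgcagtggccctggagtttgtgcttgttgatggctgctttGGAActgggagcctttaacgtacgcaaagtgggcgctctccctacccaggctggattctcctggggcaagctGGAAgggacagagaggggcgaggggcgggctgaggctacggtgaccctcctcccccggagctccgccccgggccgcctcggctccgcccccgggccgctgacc
*Nrp2*, chr1:62703067-62703316, plus strand: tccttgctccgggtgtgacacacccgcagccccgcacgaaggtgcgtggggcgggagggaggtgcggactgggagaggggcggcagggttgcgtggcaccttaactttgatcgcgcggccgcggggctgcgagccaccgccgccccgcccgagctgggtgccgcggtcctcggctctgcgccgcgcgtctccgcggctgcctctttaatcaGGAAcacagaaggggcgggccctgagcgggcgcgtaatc
The genes themselves lie on 7 chromosomes in this build: *Nrp2* at chr1:62703317-62818692, *Tek* at chr4:94739086-94874976, *Tie1* at chr4:118471191-118489849, *Kdr* at chr5:75932827-75979072, *Flt1* at chr5:147561604-147726438, *Vegfc* at chr8:54077532-54186454, *Nrp1* at chr8:128358591-128505476, *Flt4* at chr11:49609679-49652739, *Angpt1* at chr15:42424667-42676977 and *Vegfa* at chr17:46016993-46032377.
The core occurred 7 times before *Tie1*, 6 times before *Vegfa*, 2 times before *Flt4* and 1 time before *Nrp2*. It is common, and 93.4% of the 32851 mouse promoters of this length held it on one strand or the other. Promoters in RefSeq were found for 9 of the 10 genes. The longer AGGAAG or CTTCCT, which contains the core, was in the windows of *Tie1*, *Flt1* and *Nrp1*, of which those of *Flt1* and *Nrp1* lie inside the gene, and in 29.5% of all promoters. ACGTG or CACGT, a form of the hypoxia response core, was in 1 of the 2 *Vegfa* windows. It started 211 bases before the second start listed, which lies inside the gene. None of the other 8 genes held this form, and 16.6% of all promoters did. Other forms of the hypoxia response core were not searched for.

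**Figure D1:**
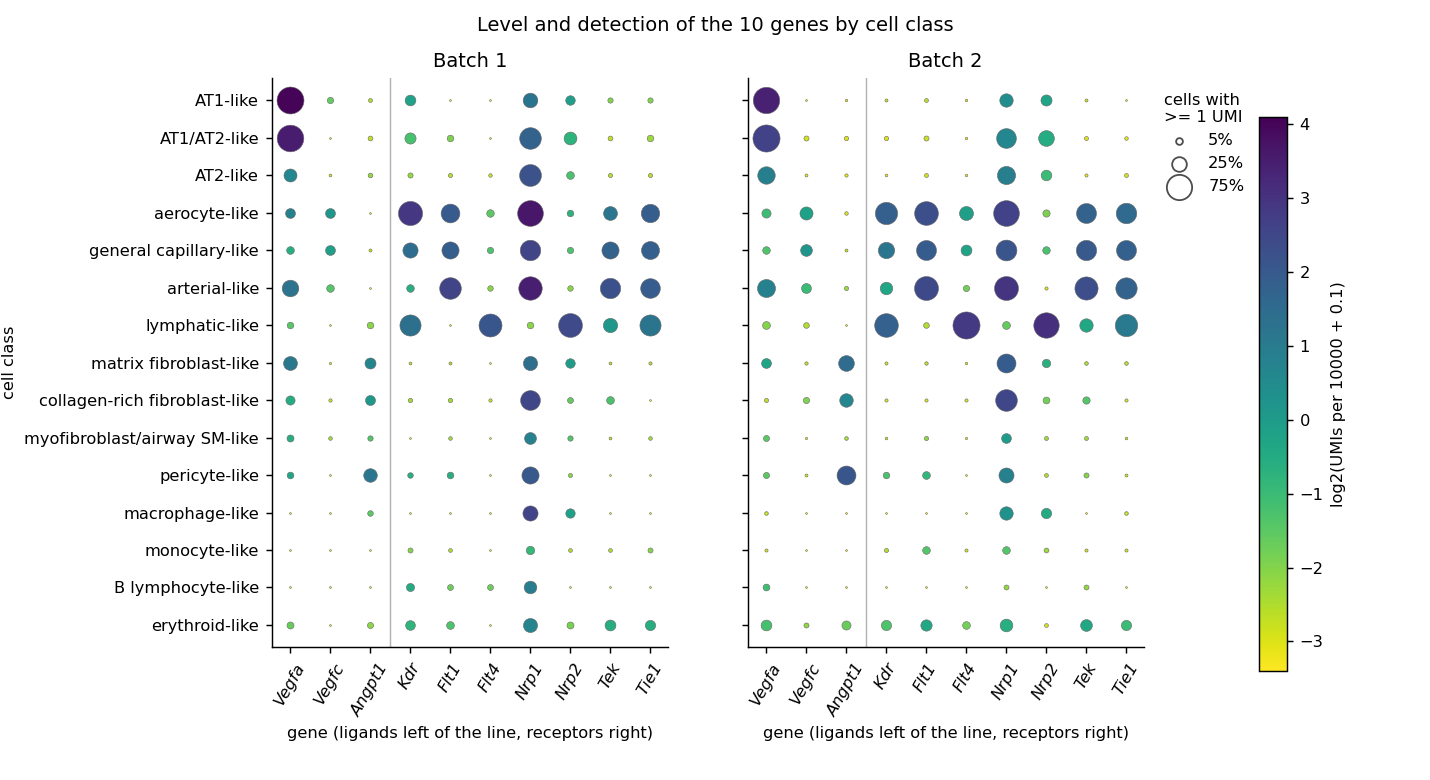
Levels of the 10 genes in the 15 classes with at least 20 cells in each batch, with a panel for each batch. Colour gives log2(UMIs per 10000 + 0.1) and dot area the share of cells with the gene. The ligand *Vegfa* is strongest in AT1-like and AT1/AT2-like cells (16.3 and 11.2 in Batch 1), *Angpt1* in pericyte-like cells and fibroblasts, and most receptors in endothelial classes.

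*Vegfa*, which encodes the principal growth factor of blood vessel endothelium, was highest in epithelium in both mice. In epithelium it reached 6.00 and 3.41 UMIs per 10000, against 1.53 and 0.517 in mesenchyme, 0.808 and 0.424 in endothelium, and 0 and 0.128 in immune cells. Epithelium lay above each of the other 3 lineages in both batches. Relative to their mean log2 level, epithelium was higher by 3.73 ± 0.28 (log2, SE) with an adjusted p of 9.16e-07 (edgeR's quasi-likelihood test with Benjamini-Hochberg adjustment, used for every adjusted p below), and by 5.06 and 3.61 within the batches. The 5.06 of Batch 1 depends on the prior count, because immune cells held no *Vegfa* UMI there. Epithelial cells held 46.8% and 83.8% of all *Vegfa* UMIs, at 12.6% and 25.3% of the cells. Matrix fibroblast-like cells held another 22.7% in Batch 1, where they were the most numerous class, and mixed cells held 19.1%.

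Within the alveolar epithelium the order was AT1-like, AT1/AT2-like and AT2-like cells in each batch. AT1-like cells had 16.3 (14.2 to 18.6) and 10.6 (9.82 to 11.4) UMIs of *Vegfa* per 10000, with detection in 85.3% (75 to 91.8) of 68 cells and 81.7% (76.8 to 85.8) of 284 cells. AT1/AT2-like cells, which carried the AT1 markers at 111 and 99.6 and the AT2 markers at 822 and 602 UMIs per 10000, had 11.2 and 6.01 of *Vegfa*, with detection at 83.3% and 86.4%. In AT1-like cells the same lists stood at 232 and 219 and at 47.0 and 30.4. AT2-like cells had 1.46 (1.13 to 1.87) and 1.75 (1.62 to 1.89), detected at 19.6% and 35.5%. The AT1-like values did not overlap those of AT2-like cells, whereas those of AT1-like and AT1/AT2-like cells overlapped between batches. The AT1/AT2-like cells had more UMIs per cell, with medians of 4029 and 5756 against 1569 and 1934.5 in AT1-like cells. Once every cell had been thinned to 600 UMIs, detection was 58.8% and 49.6% in AT1-like, 45.2% and 27.3% in AT1/AT2-like, and 6.15% and 9.38% in AT2-like cells, so that the order of the levels was kept in both batches.

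Directly compared, *Vegfa* was higher in AT1-like than in AT2-like cells by 2.56 ± 0.37 (log2, adjusted p = 2.04e-06), with 2.94 and 2.36 in the single batches. It was the only one of the 10 genes that was higher there, at a background of 5.92% of 8534 genes, and none was lower, at a background of 7.23%. The median log2 difference was 0.44 over the 10 genes and -0.10 over all genes. *Nrp1* (-1.12 ± 0.39, adjusted p = 0.0536) and *Kdr* (2.51 ± 0.91, adjusted p = 0.0642) did not pass. For *Kdr* the AT1-like cells had 10 UMIs in Batch 1 and 3 in Batch 2, and the same cells carried the 5 endothelial markers at 4.89 and 0.637 UMIs per 10000. The part of these endothelial transcripts in the *Kdr* values was not tested.

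Outside the epithelium the mean level of *Vegfa* was highest in arterial-like endothelium, with 2.25 (1.28 to 3.65) and 1.69 (1.30 to 2.16) UMIs per 10000 and detection in 32.3% and 37.9% of 31 and 116 cells. These values overlapped those of AT2-like cells. The AT1 markers in arterial-like cells summed to 4.35 and 5.39 UMIs per 10000, below the 6.41 and 9.61 of general capillary-like cells, in which *Vegfa* was at 0.539 and 0.30. In aerocyte-like cells *Vegfa* was at 1.71 and 0.375, a difference of several fold between the mice. The AT1 markers, which share *Emp2* with the aerocyte list, stood at 26.8 and 19 there. The part of AT1 or AT2 transcripts in the *Vegfa* values of arterial-like and aerocyte-like cells was not tested. Matrix fibroblast-like cells, which make extracellular matrix in the alveolar wall, had 2.02 (1.77 to 2.30) and 0.739 (0.629 to 0.862). Relative to the mean of the other mesenchymal classes this was higher by 2.03 ± 0.35 (log2, adjusted p = 5.34e-05), with 1.83 and 2.12 within the batches. In B lymphocyte-like cells, which gauge free RNA in the droplets, *Vegfa* was at 0 and 0.362. With 0 UMIs among 48663 in Batch 1, a level up to 0.616 per 10000 is allowed.

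**Figure D2:**
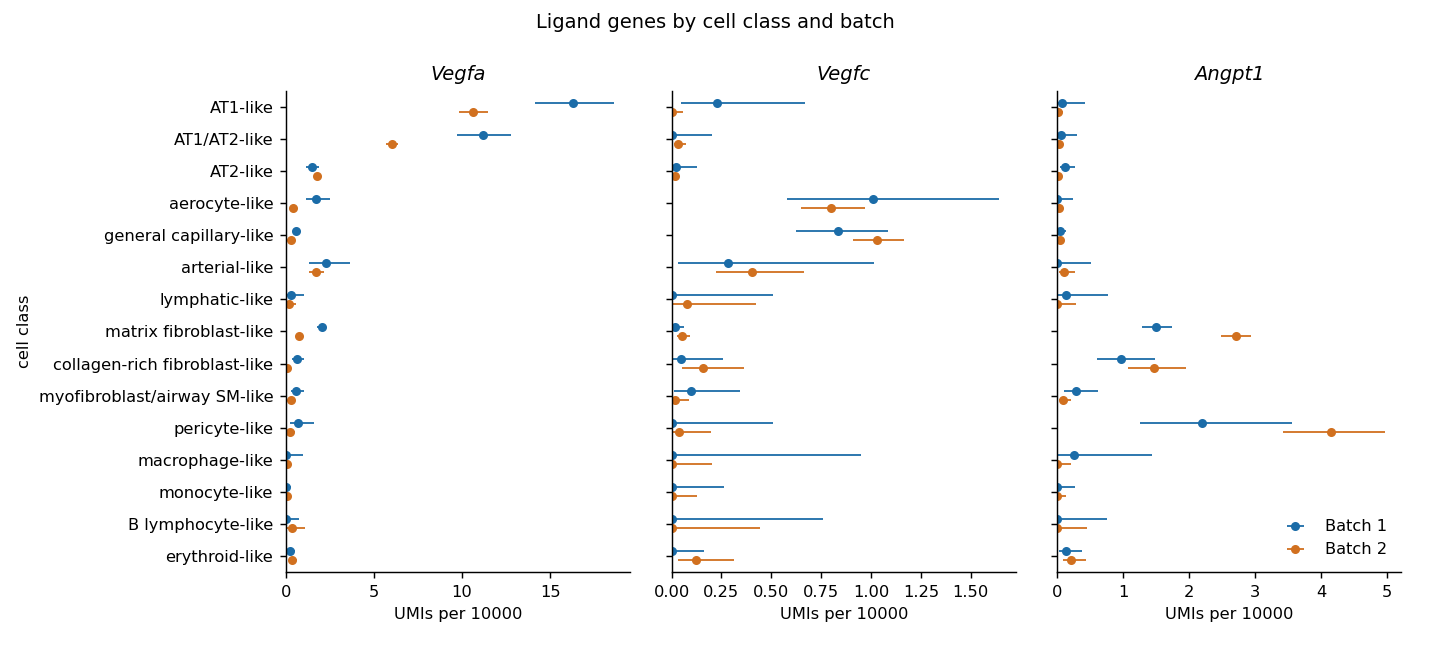
UMIs per 10000 of the ligands *Vegfa*, *Vegfc* and *Angpt1* by class, with a point for each batch and bars for the 95% exact Poisson interval of the count. AT1-like cells lie highest for *Vegfa* (16.3 and 10.6), general capillary-like and aerocyte-like cells for *Vegfc*, and pericyte-like and matrix fibroblast-like cells for *Angpt1*.

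*Vegfc*, the growth factor of lymphatic vessels, came from blood endothelium at a low level. Endothelium had 0.846 and 0.95 UMIs per 10000, and 87 and 439 UMIs in all, whereas mesenchyme had 0.029 and 0.055 and epithelium 0.062 and 0.028. Immune cells had none among 278897 and 1097460 UMIs. Endothelial cells held 79.8% and 89.0% of the *Vegfc* UMIs. The fitted difference from the mean of the other lineages was 6.56 ± 0.41 (log2, adjusted p = 4.89e-07), a size that depends on the prior count because immune cells held no UMI. Set against 3 UMIs over the immune cells of both batches, the difference was at least 4.89.

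General capillary-like cells had 0.832 (0.625 to 1.09) and 1.03 (0.910 to 1.16) UMIs of *Vegfc* per 10000, and aerocyte-like cells 1.01 and 0.797, so that these classes could not be ordered. Arterial-like cells were below both, at 0.281 and 0.402. In venous-like cells, of which Batch 1 held 18 and Batch 2 held 48, the level was 1.94 in each batch (1.09 to 3.21 and 1.48 to 2.5). Lymphatic-like cells, whose receptor FLT4 binds the product, had 0 and 1 UMI of the ligand themselves. Over both batches the general capillary-like level was 20.3 times the lymphatic-like one (exact interval 3.62 to 805), and the fitted difference of lymphatic-like cells from blood endothelium was -3.82 ± 1.12 (log2, adjusted p = 0.0188). Without the batch term this p was 0.0561.

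*Angpt1*, the ligand that activates TEK, was mesenchymal. Mesenchyme had 1.27 and 2.16 UMIs per 10000, endothelium 0.039 and 0.037, epithelium 0.087 and 0.018, and immune cells 0.036 and 0.009. Mesenchyme was above the mean of the others by 6.01 ± 0.38 (log2, adjusted p = 2.41e-07), with 4.38 and 6.22 within the batches, and held 89.0% and 92.9% of the *Angpt1* UMIs. Of the 10 genes it was the only one higher in mesenchyme, at a background of 18.4% of 12168 genes. In either direction 5 of the 10 passed, at a background of 32.6%. The 4 lower genes were *Kdr* (-2.19), *Flt4* (-2.13), *Tie1* (-1.91) and *Flt1* (-1.20), at a background of 14.3%. The mean of the others includes endothelium, so these differences need not set mesenchyme below epithelium and immune cells. *Flt1*, as an example, was at 0.093 and 0.156 in mesenchyme, 0.075 and 0.034 in epithelium and 0.072 and 0.155 in immune cells.

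By class, pericyte-like cells, the contractile cells wrapped around capillaries, had 2.2 (1.26 to 3.57) and 4.15 (3.43 to 4.97) UMIs of *Angpt1* per 10000, detected in 21.3% of 61 and 41.9% of 148 cells. Matrix fibroblast-like cells had 1.50 (1.29 to 1.74) and 2.71 (2.49 to 2.93), detected in 13.9% and 28.8%, and the values of the 2 classes overlapped between batches. Collagen-rich fibroblast-like cells followed at 0.970 and 1.47, and myofibroblast or airway smooth muscle-like cells at 0.285 and 0.0962. Within each batch the order of these 4 classes was the same. Being far more numerous, matrix fibroblast-like cells held 70.7% and 68.9% of all *Angpt1* UMIs. Relative to the mean of the other mesenchymal classes they were higher by 1.49 ± 0.33 (log2, adjusted p = 0.00147), although pericyte-like cells lay above them; within the batches the differences were 0.96 and 1.72, and without the batch term the adjusted p was 0.0522. General capillary-like cells, a check for free RNA, had 0.0462 and 0.0395.

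In that comparison 3 of the 10 genes were higher in matrix fibroblast-like cells (*Nrp2*, *Vegfa* and *Angpt1*), at a background of 7.3% of 8534 genes, and none was lower, at a background of 3.63%. *Nrp2* was higher by 2.45 ± 0.39 (adjusted p = 1.4e-05), from 0.890 and 0.531 UMIs per 10000 in matrix fibroblast-like cells and at most 0.285 in any of the other mesenchymal classes compared. The median over the 10 genes was 0.56, or 0.20 with *Flt4*, which had no UMI in pericyte-like cells, set at 3 UMIs there; over all genes it was 0.10.

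**Figure D3:**
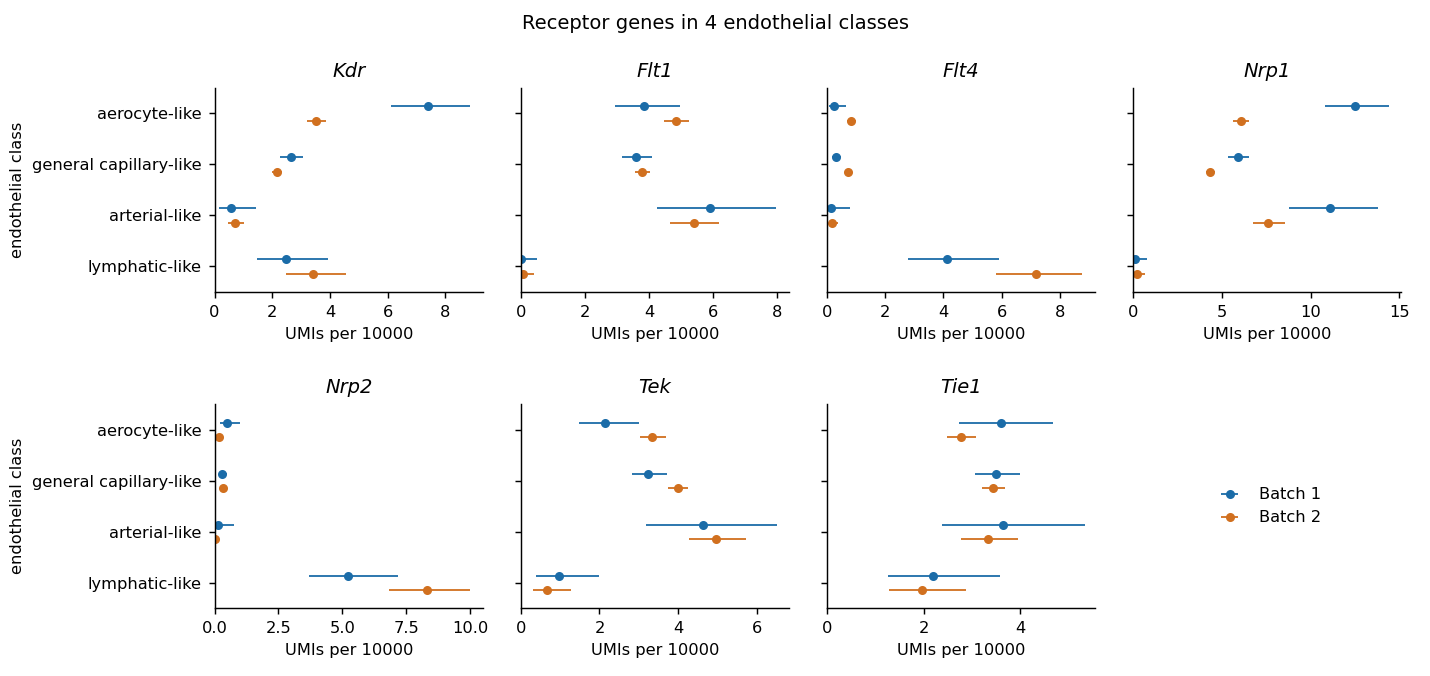
UMIs per 10000 of the 7 receptors and co-receptors in the 4 endothelial classes, with a point for each batch and bars for the 95% exact Poisson interval. *Flt4* and *Nrp2* lie highest in lymphatic-like cells (4.13 and 7.17, and 5.24 and 8.31), where *Flt1* and *Nrp1* are near 0, and *Kdr* lies lowest in arterial-like cells (0.561 and 0.697).

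The receptors were taken lineage by lineage first. Of the 10 genes, 7 were higher in endothelium than in the mean of the other 3 lineages, at a background of 17% of 12168 genes, and none was lower, at a background of 13.9%. They were *Vegfc* and the receptors *Tek* (6.02 ± 0.28, adjusted p = 2.45e-08), *Tie1* (5.92 ± 0.28, 2.88e-08), *Flt4* (5.38 ± 0.32, 1.76e-07), *Flt1* (5.37 ± 0.23, 1.52e-08), *Kdr* (4.68 ± 0.24, 5.75e-08) and *Nrp1* (1.54 ± 0.26, 0.000747). The other 3 did not pass: *Nrp2* differed by 0.54 ± 0.26 (adjusted p = 0.139), *Vegfa* by -0.57 ± 0.35 and *Angpt1* by -1.38 ± 0.77. For *Vegfa* the sign differed between the batches, with 0.77 in Batch 1, where immune cells held no UMI of it, and -0.64 in Batch 2. The median difference was 5.02 over the 10 genes, or 4.78 with *Vegfc* at the value set by 3 immune UMIs, against -0.02 over all genes. All 10 genes passed the filter on low counts in every comparison. A gene can pass that filter through the lineage in which it is high.

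Epithelium showed the reverse for 4 receptors, and 5 of the 10 genes passed there in either direction, at a background of 38.6% of 12168 genes. *Flt1* (-3.21), *Tek* (-3.01), *Tie1* (-2.58) and *Flt4* (-2.57) were lower there, at a background of 16.1%, and *Vegfa* alone was higher, at a background of 22.5%. For these 4 receptors the difference was smaller in Batch 1 than in Batch 2: -1.66 and -3.39 for *Flt1*, -1.24 and -3.27 for *Tek*, -1.49 and -2.70 for *Tie1*, and -0.87 and -2.42 for *Flt4*. The mean of the other lineages includes endothelium, so these differences need not set epithelium below mesenchyme and immune cells. *Tek*, as an example, was at 0.075 and 0.019 in epithelium, 0.087 and 0.098 in mesenchyme and 0.036 and 0.046 in immune cells. The median over the 10 genes was -1.06, or -1.69 with *Vegfc* at the value set by 3 immune UMIs, and 0.00 over all genes. In mesenchyme the corresponding medians were -0.36, -0.87 and 0.01. With the mitochondrial limit at 5%, *Flt4* no longer passed in epithelium or in mesenchyme.

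*Tek*, which encodes the receptor of ANGPT1, had 2.94 and 3.82 UMIs per 10000 in endothelium, and at most 0.098 in mesenchyme, epithelium or immune cells. Arterial-like cells had 4.63 and 4.96, above general capillary-like cells at 3.24 and 3.98 and aerocyte-like cells at 2.15 and 3.35, whose values overlapped. Lymphatic-like cells had 0.965 and 0.680, with 7 and 9 UMIs. They were below blood endothelium by a log2 difference of -2.30 ± 0.40 (adjusted p = 5.23e-05). As background, *Tek* was at 0.0685 and 0.0193 in AT2-like cells and at 0 and 0.121 in B lymphocyte-like cells.

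*Tie1* was alike across the 3 blood vessel classes compared, which leave out venous-like cells. Endothelium as a whole had 3.42 and 3.18 UMIs per 10000. The values were 3.65 and 3.32 in arterial-like, 3.50 and 3.44 in general capillary-like and 3.61 and 2.77 in aerocyte-like cells, and none of these neighbours differed beyond the spread between mice. Lymphatic-like cells had 2.2 and 1.96, below all 3 in both batches, but the difference of -0.77 ± 0.34 did not pass (adjusted p = 0.138). In AT2-like cells *Tie1* was at 0.0685 and 0.0303.

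*Flt1* was a receptor of blood vessels. Arterial-like cells had 5.89 and 5.39 UMIs per 10000, aerocyte-like cells 3.86 and 4.85, and general capillary-like cells 3.59 and 3.79. Arterial-like values lay above those of the other 2 classes without overlap. Venous-like cells, 18 in Batch 1 and 48 in Batch 2, were left out of this order. In lymphatic-like cells 0 and 1 UMI of *Flt1* were found among 72566 and 132416, although the same cells carried the 5 endothelial markers at 33.6 and 25.5 UMIs per 10000. General capillary-like cells exceeded them 76.8 times over both batches (exact interval 13.8 to 3036). The fitted difference from blood endothelium was -6.56 ± 0.69 (adjusted p = 4.7e-09).

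*Kdr*, the main signalling receptor of VEGFA, had 3.31 and 2.45 UMIs per 10000 in endothelium. It was highest in aerocyte-like cells, at 7.40 (6.12 to 8.87) and 3.51 (3.19 to 3.85), detected in 68.3% of 63 and 58.0% of 274 cells. Lymphatic-like cells had 2.48 (1.47 to 3.92) and 3.40 (2.48 to 4.55), and general capillary-like cells 2.65 (2.27 to 3.08) and 2.15 (1.98 to 2.34), detected in 26.8% and 31.2%. The aerocyte-like value in Batch 2 was close to the lymphatic-like one. Arterial-like cells, high in *Flt1*, *Tek* and *Nrp1*, had 0.561 and 0.697 of *Kdr*, from 4 and 26 UMIs, below the capillary-like and lymphatic-like classes in both batches. After thinning to 600 UMIs, detection was 42.9% and 19% in aerocyte-like cells, 12.1% and 11.6% in general capillary-like cells, and 3.23% and 7.76% in arterial-like cells. AT2-like cells, as background, had 0.114 and 0.011.

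Aerocyte-like and general capillary-like cells were compared directly, as the 2 capillary types. None of the 10 genes passed in either direction, at a background of 0.152% of 8534 genes (13 genes, 0.0703% higher and 0.082% lower), and at an unadjusted p under 0.05 there was 1, *Kdr*, where 343 of the 8534 genes had such a p. It differed by 0.98 ± 0.41 (unadjusted p = 0.0211, adjusted p = 1), by 1.34 in Batch 1 and 0.67 in Batch 2. *Nrp1* differed by 0.69 ± 0.35 (unadjusted p = 0.0605) and *Vegfa* by 0.86 ± 0.44 (unadjusted p = 0.057). DESeq2's Wald test also called none of the 10. Over the 10 genes the median was -0.06, and over all genes it was -0.03.

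**Figure D4:**
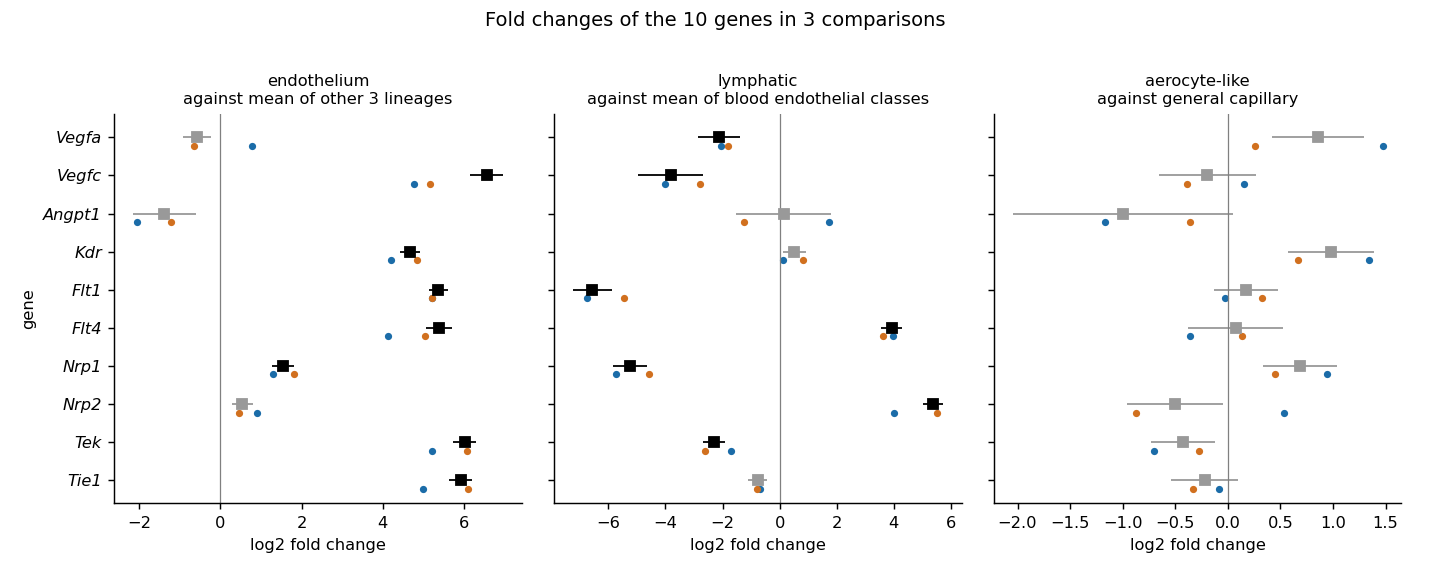
Fitted log2 differences of the 10 genes (squares) with standard errors in endothelium against the mean of the other 3 lineages, lymphatic-like cells against blood endothelium, and aerocyte-like against general capillary-like cells. Black squares passed the adjusted p threshold of 0.05 and grey ones did not, and small circles give the difference within each batch (Batch 1 blue, Batch 2 orange). In the lymphatic comparison *Nrp2* and *Flt4* lie to the right (5.38 and 3.92) and *Flt1* and *Nrp1* to the left (-6.56 and -5.25).

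Lymphatic-like cells were then set against blood endothelium (general capillary-like, aerocyte-like and arterial-like classes), a comparison that rests on 21 cells of Batch 1 and 29 of Batch 2. The spread behind its p-values comes from all 15 classes and not from these cells alone. *Flt4*, the receptor of VEGFC, had 4.13 (2.79 to 5.90) and 7.17 (5.80 to 8.77) UMIs per 10000 in them and was detected in 61.9% and 86.2% of cells. General capillary-like cells had 0.308 and 0.735, aerocyte-like cells 0.253 and 0.829, and arterial-like cells 0.140 and 0.188. Lymphatic-like values lay far above these in both batches, by 3.92 ± 0.36 (log2, adjusted p = 2.98e-10). The remaining *Flt4* was not negligible in number: the general capillary-like class, with many more cells, held 20 and 186 UMIs against 30 and 95 in lymphatic-like cells. In AT2-like cells it was at 0.0457 and 0.00827.

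*Nrp2*, the co-receptor of FLT4 for VEGFC, had 5.24 (3.71 to 7.19) and 8.31 UMIs per 10000 in lymphatic-like cells, detected in 66.7% and 75.9%. Of this, the UMIs were unevenly spread, with up to 11 in a cell of Batch 1 and 30 in a cell of Batch 2. The next classes were AT1-like cells at 0.841 and 0.733, matrix fibroblast-like cells at 0.890 and 0.531, and macrophage-like cells at 0.772 and 0.608, which did not differ beyond the spread between mice. Lymphatic-like cells were above blood endothelium by 5.38 ± 0.35 (adjusted p = 1.28e-14), with 4.00 and 5.52 within the batches. Over whole lineages *Nrp2* was at 0.759 and 0.541 in endothelium, 0.695 and 0.366 in mesenchyme, 0.435 and 0.419 in epithelium and 0.143 and 0.301 in immune cells.

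In all, 2 of the 10 genes were higher in lymphatic-like cells (*Nrp2* and *Flt4*), at a background of 6.09% of 8534 genes, and 5 were lower, at a background of 6.49%. The lower genes were *Flt1*, *Nrp1* (-5.25 ± 0.60, adjusted p = 2.45e-08), *Vegfc*, *Tek* and *Vegfa* (-2.13 ± 0.73, adjusted p = 0.0476). For *Vegfa* the counts were 2 UMIs in each batch, and the adjusted p was 0.138 without the batch term and 0.0603 with the size factors of DESeq2. *Kdr* differed by 0.51 ± 0.41 (adjusted p = 0.5). The median was -1.45 over the 10 genes and -0.22 over all genes. Lymphatic-like cells of Batch 2 also carried the AT2 markers at 51.7 UMIs per 10000, against 4.96 in Batch 1. *Vegfa* was at 0.276 and 0.151 in these cells, and the part of free RNA was not tested.

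*Nrp1*, the co-receptor for VEGFA and semaphorins, was counted in all 4 lineages. Endothelium had 6.98 and 4.84 UMIs per 10000, epithelium 3.57 and 1.28, mesenchyme 2.84 and 3.24 and immune cells 1.51 and 0.474, and endothelium held 39.9% and 47.4% of its UMIs. Arterial-like cells had 11.1 and 7.61 and aerocyte-like cells 12.5 and 6.07, without a difference beyond the spread between mice. Collagen-rich fibroblast-like cells, at 5.59 and 5.60, overlapped general capillary-like cells at 5.93 and 4.36. Macrophage-like cells were at 5.92 and 1.10 and AT2-like cells at 4.50 and 1.74, each with a several-fold gap between the mice. In lymphatic-like cells only 1 and 3 UMIs were counted, 0.138 and 0.227 per 10000, and general capillary-like cells exceeded them 24.0 times (exact interval 9.35 to 88.2). B lymphocyte-like cells, taken as background, had 1.85 and 0.121. In Batch 1 this was above the 0.138 of lymphatic-like cells, so the B lymphocyte-like value was not a floor common to all classes. The part of free RNA in that value, and in others near 2 per 10000, was not tested.

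**Figure D5:**
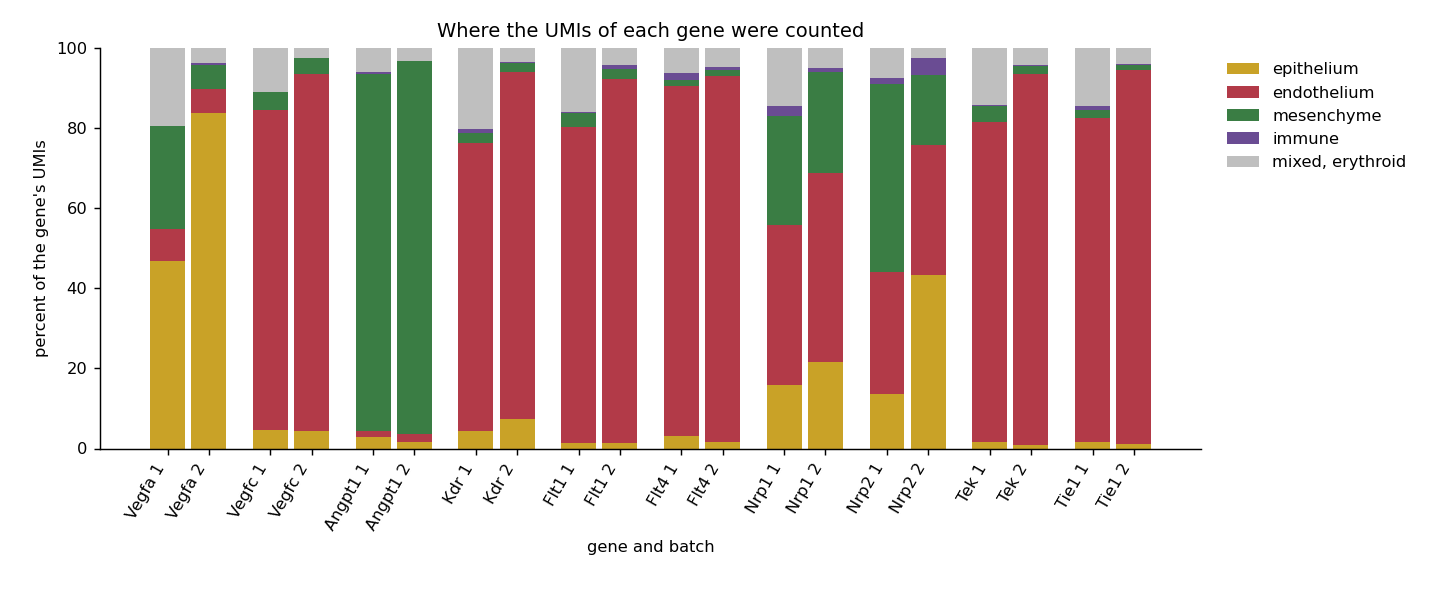
Percentage of each gene's UMIs that fell in endothelium, epithelium, mesenchyme, immune cells and the cells outside these lineages, with a bar for each batch that sums to 100%. *Tek*, *Tie1*, *Flt1* and *Flt4* are endothelial in both batches (79.1% to 93.3%), *Angpt1* is mesenchymal (89.0% and 92.9%), and *Nrp1* and *Nrp2* are divided among lineages.

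The batches differed in level more often for some genes than for others. Over the 15 classes *Nrp1* was higher in Batch 1 in 12, *Kdr* in 11, and *Vegfa* and *Tie1* in 10, whereas *Flt4* was higher in Batch 2 in 10. Batch 2 had more UMIs per cell, and the share of cells above the mitochondrial limit was 25.7% in it before filtering. Mouse, depth and preparation cannot be told apart as sources of these gaps.

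The 25 other genes of the same pathways, which comprise further ligands, receptors, partners, targets and regulators, were examined by count in the same fits, and the values given for them are log2 differences past the threshold. In endothelium 16 of 24 tested were higher and 1, *Sema3e*, was lower (-1.48, with -0.76 in Batch 1 and -1.77 in Batch 2). The count of lower genes was 0 without the batch term, by DESeq2's Wald test, at the 5% mitochondrial limit and without the low-count filter. With coarser clustering and with clustering on the members it was 2. The higher genes included receptor partners, as *Ptprb* (6.36), a phosphatase that restrains TEK, *Cdh5* (6.04), the adhesion molecule of endothelial junctions, and *Robo4* (5.38). Among targets, *Dll4* (6.90), a Notch ligand induced by VEGF, *Nos3* (5.88), the endothelial nitric oxide synthase, and *Esm1* (5.95) were higher, as was *Epas1* (4.86), a hypoxia-inducible transcription factor. Within the batches, with a prior count of 2, *Dll4* differed by 4.94 and 5.19 and *Esm1* by 4.46 and 4.14. *Nos3* differed by 4.73 and 5.57, and the fitted size of each of these targets lay above its batch values. Background shares are those given above for the same comparison.

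In epithelium 4 of the 24 were higher and 9 lower. The higher genes were the semaphorins *Sema3e* (5.00) and *Sema3a* (4.59), the ligand *Vegfb* (1.61) and *Egln1* (1.2, with 3.10 in Batch 1 and 0.56 in Batch 2), an oxygen-sensing prolyl hydroxylase. Semaphorins of this class bind neuropilins or plexins. *Sema3a* (3.04) and *Sema3e* (3.07) were also higher in AT1-like than in AT2-like cells, as was *Pdgfb* (3.31, with 3.76 in Batch 1 and 1.12 in Batch 2), and none of 22 tested was lower there. *Pdgfb* was also among the genes higher in endothelium, and the part of the endothelial transcripts of AT1-like cells in its value was not tested. In mesenchyme 4 were higher and 6 lower, the higher ones being *Figf* (4.74), which encodes VEGFD, *Pgf* (4.63), a ligand of FLT1, *Plxnd1* (1.22) and *Vegfb* (0.92).

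Within mesenchyme, matrix fibroblast-like cells were higher in *Figf* (2.91) and *Plxnd1* (0.99) and lower in 5 of 22 genes, among them *Pgf* (-4.61) and *Angpt2* (-2.87, with -1.37 and -1.87 within the batches), the antagonistic TEK ligand. Without the batch term these counts were 1 higher and 2 lower. In lymphatic-like cells 4 of 22 were higher and 8 lower. *Pgf* (6.64), *Vegfb* (4.13), *Sema3a* (4.03) and *Angpt2* (4.00) were higher, each on few UMIs, as *Angpt2* had 6 in each batch and *Vegfb* 4 in each. Within the batches, with a prior count of 2, these differences were 4.67 and 2.12, 3.09 and 2.37, 2.2 and 3.48, and 3.02 and 2.14, in the same order. *Ptprb* (-3.89), *Epas1* (-4.83) and *Sema3c* (-4.12) were among the lower genes. Lymphatic-like cells had no UMI of the lower genes *Sema3g*, *Aplnr* and *Pdgfb*. Between aerocyte-like and general capillary-like cells none of 22 passed.

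Genes whose pattern was most like each of the 10 were ranked by Pearson's r of log2 normalized counts over the 30 sums of 15 classes, among 6370 genes, as a description. These sums share libraries and classes and are not independent. *Vegfa* was followed most closely by *Lama5* (0.89), a laminin chain of basement membranes, *Vegfc* by *Prx* (0.91), and *Kdr* by *Cldn5* (0.90), the tight junction protein of endothelium. *Tie1* was followed by *Ushbp1* (0.96), *Ccm2l* (0.96) and *Cdh5* (0.95), and *Tek* by *Hspa12b* (0.94), *Stmn2* (0.93) and *Nos3* (0.92). *Cldn5*, *Prx* and *Stmn2* were on the marker lists that named lineages or classes, so their variation between classes is partly built in. *Flt1* was nearest to *Tspan7* (0.90), *Flt4* to *Cda* (0.86) and *Nrp1* to *Efnb1* (0.81). *Ednra* (0.91) and *Lamb1* (0.87) were among the genes close to *Angpt1*, and *Susd4* (0.74) and *Slc45a3* (0.73) among those close to *Nrp2*. Among the 10 genes themselves, *Tek* and *Tie1* had the highest r (0.91), followed by *Kdr* and *Tie1* (0.82), whereas *Vegfa* and *Kdr* had 0.06 and *Angpt1* and *Tek* -0.13.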

How the data were processed

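Drop-seq UMI counts of PND1 lung cells from 2 mice were used. The authors aligned reads to mm10 with Bowtie2 2.2.7 (version from the submitters' processing notes) and with Drop-seq tools counted the UMIs over exons of each gene in each cell. The deposited counts were not normalized, and each barcode had at least 500 genes. Multi-mapped reads and soluble forms of a receptor are not separated by such counts.

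The 10 genes and all gene lists were chosen with earlier results of these data known. Cells with over 10% mitochondrial UMIs (37 genes) were removed. Variable genes other than the members, the pathway list and cell-cycle genes entered a Leiden clustering (15 neighbours, resolution 1; Python 3.11.15, scanpy 1.11.5, leidenalg 0.10.2, igraph 0.11.9), first over all cells and then within lineages. Clusters were named from marker lists, and those with markers of 2 lineages were set apart as mixed; scrublet marked 13 and 118 cells as doublets, which were kept. For detection at equal depth each cell was thinned to 600 UMIs, and no cell was shallower.

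Counts were summed by class and batch (30 sums of 38849 to 3628532 UMIs) and by lineage and batch (8 sums) and fitted in R 4.3.3 with edgeR 4.0.16: TMM, filterByExpr, quasi-likelihood test, class and batch as factors, Benjamini-Hochberg threshold 0.05. Single-batch differences used a prior count of 2. Batches pair the classes because each is 1 mouse: deviations of sums of the same mouse correlated at 0.393 to 0.670 over 6 lineage pairs, and above 0.1 in 101 of 105 class pairs. The same fit was also run on simulated counts with 200 changed genes, and the outcome is not reported here. Named genes were the 10 members, the 25 pathway genes past the threshold and, for each member, the 3 genes with the highest correlation among those with a normalized level of at least 50 (edgeR's CPM); some results of this ranking are not reported here. Promoters are from RefSeq (GRCm38.p6). Alternatives were no batch term, DESeq2 1.42.0 (size factors, Wald test), no low-count filter, other mitochondrial limits, removal of doublets, other clusterings, each batch alone, at least 2 UMIs, thinning, and the cell types the authors list for 1998 cells of Batch 1.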

Additional observations from a re-analysis of the deposited data

Results flagged for a closer look

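The 1940 cells of Batch 2 above the mitochondrial limit entered no comparison. All 10 genes were counted in them above the level that 0 UMIs would allow, and their levels are given as UMIs per 10000 beside those of the Batch 2 cells that were kept. The ligands stood at 2.13 against 1.77 for *Vegfa*, 0.131 against 0.270 for *Vegfc* and 0.513 against 0.467 for *Angpt1*. The endothelial receptors stood at 0.521 against 0.720 for *Kdr*, 1.02 against 1.16 for *Flt1*, 0.215 against 0.241 for *Flt4*, 0.749 against 1.04 for *Tek* and 0.521 against 0.865 for *Tie1*. The co-receptors stood at 2.6 against 2.59 for *Nrp1* and 0.487 against 0.422 for *Nrp2*. These cells came from 1 mouse, and the differences were not tested.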

How the results depend on the processing

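No called value of the 10 genes changed sign under any alternative. Of 70 tests (10 genes in 7 comparisons) 28 gave a call, and removal of marked doublets and coarser or finer clustering changed none. Without the replicate block 3 calls were lost, those of *Vegfa* (adjusted p = 0.138) and *Vegfc* (0.0561) in lymphatic-like cells and of *Angpt1* in matrix fibroblast-like cells (0.0522). DESeq2's Wald test lost the same 3 (0.0871, 0.0834 and 0.267). DESeq2's size factors lost *Vegfa* in lymphatic-like cells (0.0603), as did clustering with the members and pathway genes. A mitochondrial limit of 5% lost *Flt4* in epithelium and in mesenchyme; the lymphatic comparison was not run there, since under 20 cells remained in a batch. Gained calls were 3 without the low-count filter, 2 without a mitochondrial limit and 1 with clustering on the members. The cause of these changes was not tested.

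Without the replicate block the calls over all genes numbered 2323 instead of 3760 for endothelium, 3207 instead of 4701 for epithelium, 2497 instead of 3971 for mesenchyme, 543 instead of 1122 for AT1-like against AT2-like, 688 instead of 1074 for lymphatic-like, 436 instead of 933 for matrix fibroblast-like, and 1 instead of 13 for aerocyte-like cells. The block changed no other call of a member. Calls of pathway genes without it were 1 higher and 2 lower instead of 2 and 5 in matrix fibroblast-like cells, as also among the 19 tested at a mitochondrial limit of 5%, 6 instead of 8 lower in lymphatic-like cells, 3 higher and 4 lower instead of 4 and 6 in mesenchyme, and 2 instead of 3 in AT1-like against AT2-like cells. In endothelium 0 instead of 1 were lower, and in epithelium 3 instead of 4 were higher. The aerocyte-like count was also 3 by DESeq2's Wald test, 32 without the low-count filter, 5 with coarser clustering and 4 with clustering on the members. In AT1-like against AT2-like cells, the 1 member called became 3 without the filter and 2 with clustering on the members.

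DESeq2's size factors moved the share of higher calls from 66.8% to 55.7% in matrix fibroblast-like cells and from 46.2% to 58.8% in aerocyte-like cells, and the Wald test moved it from 48.4% to 63.1% in lymphatic-like cells. The size factors shifted the median of all genes from 0.10 to -0.02 in the first, from -0.03 to 0.06 in the second and from -0.10 to 0.01 in AT1-like against AT2-like cells, and the Wald test from -0.22 to 0.00 in lymphatic-like cells.

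The class with the highest level held for 6 of 10 members when at least 2 UMIs were required, which does not match cells for depth. *Vegfa* then moved to AT1/AT2-like cells, and *Vegfc*, *Nrp1* and *Tie1* to aerocyte-like cells. With each cell thinned to 600 UMIs, *Nrp1* moved to aerocyte-like and *Tie1* to general capillary-like cells, and the other members kept their highest class. By the authors' cell types in Batch 1, 9 of 10 kept it and *Kdr* was highest in lymphatic endothelium (3.97 UMIs per 10000, against 3.29 in vascular endothelium, which there holds arterial and capillary cells together). Vascular endothelium was counted as the same class as any arterial-like or capillary-like one. For *Vegfc*, *Flt1*, *Nrp1*, *Tek* and *Tie1* this therefore could not check the order among those classes. With 1 batch left out no residual degrees of freedom remained, so single-batch differences have no test, and no called member changed sign. Few cells limit the lymphatic-like, arterial-like and venous-like values.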

Other observations

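*Kdr* was also counted in airway cells, which belong to epithelium. The secretory airway-like class of Batch 2 had 22 UMIs in 32 cells, 0.910 per 10000, with detection in 50.0% of cells, and the class with secretory and ciliated markers had 62 UMIs in 54 cells, 0.520 per 10000, with detection in 46.3%. AT2-like cells of the same batch had *Kdr* in 0.528% of cells, and the airway levels were 82.6 times (exact interval 28.0 to 330) and 47.2 times (17.5 to 179) the AT2-like level. After thinning to 600 UMIs, detection was 12.5% and 5.56% in the airway classes and 0.264% in AT2-like cells. The other endothelial receptors were near 0 in these airway cells: *Flt1* had 1 and 0 UMIs, *Tek* 0 and 1, and *Tie1* 0 and 3, and the 5 endothelial markers summed to 0.331 and 0.134 UMIs per 10000. Batch 1 held 4 and 3 cells of these classes and no *Kdr* UMI, so that the observation rests on 1 mouse and has no test. These classes were singled out after their values were seen.

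Mixed cells held *Vegfa* at 5.39 and 1.98 and *Kdr* at 2.33 and 0.618 UMIs per 10000, as sums over cells with markers of more than 1 lineage, and they entered no comparison. Vascular mural-like cells with smooth muscle actin had *Angpt1* at 1.51 per 10000 in Batch 2 (34 UMIs in 97 cells) and no UMI in the 15 cells of Batch 1. Mesothelial-like cells had *Kdr* at 0.220 and 1.45, from 1 and 6 UMIs.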
